A study of Gallus gallus with 30 samples.

Results

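In the granulosa cell layer of the hen's ovarian follicles, 95 of the 23910 genes listed met a rule on their stage means. They reached 10 FPKM or more in the largest follicle, F1, and at least 8 times their level in the smallest, had no higher mean at any stage before ovulation, and kept under 25% of the F1 level in the follicle left after the egg had been released. Genes that peak in F1 but miss one of these limits are not among them. The follicles were ranked from small white (SWF), large white (LWF), small yellow (SYF) and large yellow follicles (LYF), which are prehierarchical, through the preovulatory F5, F4, F3, F2 and F1, with F1 the next to ovulate, to the postovulatory follicle (POF), the emptied follicle wall. The libraries were 30, 3 from each of 10 stages, all from healthy Luhua hens at 31 weeks of age, made from total RNA with rRNA removed. Levels are FPKM, in which fragment counts are scaled by transcript length and by the mapped fragments of the library, so they can be set beside each other between genes. How many hens or follicles went into a library was not given in the sources used here, so tests measure the spread between libraries that the study calls biological replicates.

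Granulosa cells line the inside of the follicle wall and enclose the oocyte. In hens, a single prehierarchical follicle at a time is selected into the hierarchy, after which its granulosa cells gain the response to luteinizing hormone and begin to make progesterone, which is produced most in F1 shortly before ovulation. The granulosa layer also secretes proteins of the coat around the oocyte. The postovulatory follicle lacks a corpus luteum of the mammalian kind and regresses within days.

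The genes were chosen by their measured stage means, as those with a mean of at least 10 FPKM in F1, with F1 the highest of the 9 stages before ovulation, with F1 at least 8 times SWF, and with POF under 25% of F1. Of the genes listed, 5080 reached 10 FPKM in F1, 817 of these peaked in F1, 143 were also at least 8 times SWF, and 96 of those were under the limit in POF. Genes that the study names by symbol were set aside. This removed 1 gene, ZP3, which encodes a protein of the egg coat and had 69342 ± 9025 FPKM (SD, n = 3) in F1. The 95 left are numbered by their F1 mean, member 1 being the highest. The ratio of F1 to SWF, the F1 peak and the loss in POF thus describe how members were selected and carry no test. All 95 passed the filter on low values.

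Members could not be given names or known functions, since no table used here pairs their identifiers with symbols. Only the study's table of 36 genes does so, and none of the 95 is in it. The identifiers are printed for 4 genes chosen after their values were seen, 2 for the rise and 2 for the fall. For the same reason the labelled cell type could not be checked against granulosa, theca, blood or oocyte markers, of which, together with the pathway lists, 2 of 242 genes have an identifier. Genes were mapped to GRCg6a, and positions, promoters and proteins of the members are not given.

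For 6 libraries the sample titles and descriptions exchange LWF and SYF, so both stages carry the names of the data columns and were pooled in tests. POF replicate 3 stood apart from the other POF libraries. Over the 15197 genes above the low-value filter, its rank correlation with the F1 mean was 0.857, against 0.666 for POF replicate 1 and 0.738 for POF replicate 2, as a description across genes. In the study's read summary 6 libraries have a higher Q30, the share of bases of high quality: F1 replicates 2 and 3, and replicate 3 in POF, F2, F3 and F4. FPKM added up to between 471009 and 642207 in a library, and the relative depth, read from the most frequent low FPKM value, ran from 1 to 1.54. The 6 higher-Q30 libraries also had the highest relative depth, from 1.25 in POF replicate 3 to 1.54 in F4 replicate 3. The next was LYF replicate 3 at 1.23, so Q30 group and depth are not separated here. In these bulk samples, fewer cells of a type and less RNA per cell cannot be told apart.

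In F1 the members ranged from 10.2 to 24878 FPKM with a median of 101. There were 9 members at 1000 FPKM or more, 39 from 100 to under 1000 and 47 under 100. In F1, 17 members were among the 100 genes with the highest mean, and in POF 1 was. None was in the top 100 of SWF or LWF, 2 were in that of SYF, between 5 and 8 in those of LYF to F3, and 11 in that of F2. Close to the thresholds, the lowest F1 means inside were 10.2 and 10.2 FPKM and the highest outside 9.55 and 9.08. The smallest ratios of F1 to SWF were 8.07 and 8.13 inside and the largest outside 7.94 and 7.52. The highest POF levels inside were 24.98% and 23.8% of F1, and the lowest outside 25.6% and 27.3%. The smallest leads of F1 over the next stage were 1.01-fold and 1.01-fold inside, and genes just outside reached 0.997 and 0.993 of the next stage.

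As a share of all FPKM in a library, the members together went from 0.251%, 0.202% and 0.185% in the SWF libraries to 12.2%, 10.9% and 10.7% in the F1 libraries. The F1 mean was 11.3% ± 0.81 (SD, n = 3). In POF the shares were 0.275%, 0.545% and 2.25%, so the 3 POF libraries lay below every F3, F2 and F1 library, and POF replicate 3 lay above the other POF libraries. Member 1 alone held 39.6% of the members' summed level in F1, and the first 5 held 68.6%. Without member 1 the share was 0.184% ± 0.034 (SD, n = 3) in SWF, 6.81% ± 0.69 in F1 and 0.538% ± 0.35 in POF.

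**Figure D1:**
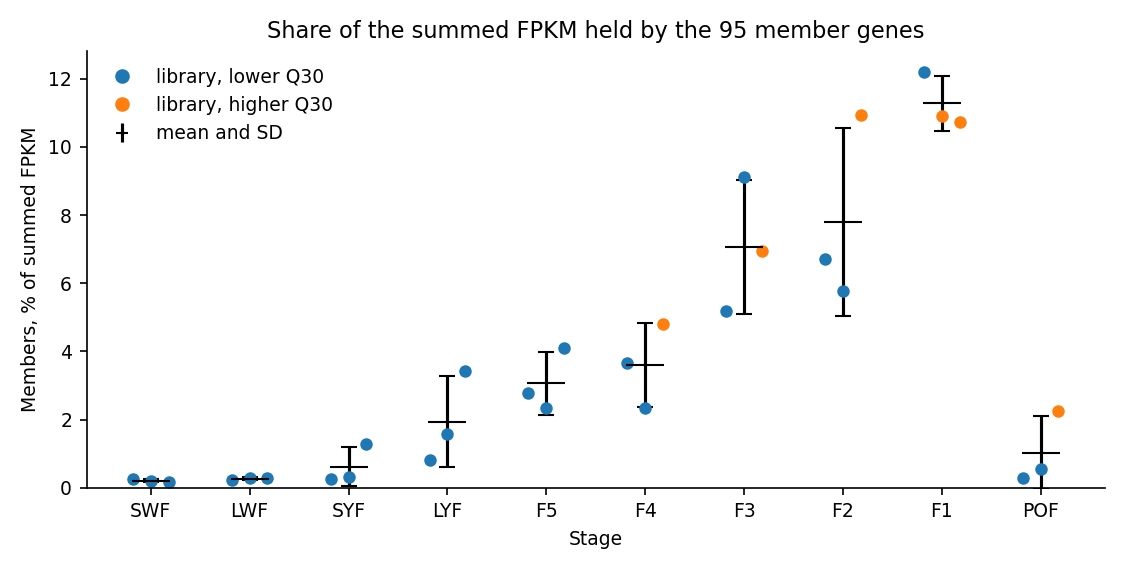
Share of each library's summed FPKM held by the 95 member genes (y axis, %) at each stage (x axis), with 1 point per library, coloured by Q30 group, and the mean and SD over 3 libraries. The F1 libraries sit between 10.7% and 12.2%, the SWF libraries at or below 0.251%, and 1 of the 3 POF libraries, at 2.25%, lies above the other POF libraries.

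Between SWF and F1 the members' levels were not evenly spaced. The median member stood at 3.28% of its F1 level in SWF, 3.06% in LWF and 6.19% in SYF. It had reached 11% by LYF, 14.2% by F5 and 22.6% by F4, and then 50.6% by F3 and 66.8% by F2. Of the steps from LYF on, the one from F4 to F3 had the largest median ratio of the later to the earlier stage, 2.103. The median ratio was 1.502 from LYF to F5, 1.342 from F5 to F4, 1.305 from F3 to F2 and 1.496 from F2 to F1. All 3 F3 libraries were above all 3 F4 libraries in 32 members, with 5.48% of the 15197 genes above the filter doing the same. For F5 above LYF this held for 5 members against 5.80% of genes, for F4 above F5 for 4 against 2.20%, and for F2 above F3 for 4 against 4.85%. Since the rule asks for a rise from SWF to F1, a share above that of all genes somewhere along the course was to be had by construction, and what is described here is where it fell.

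Of the 95 members, 40 first reached 50% of their F1 mean in F3, 23 in F2 and 22 only in F1, while 4 did so already in LYF, 2 in F5 and 4 in F4. The mean was higher at every step from F5 to F1 in 60 members. The rule fixed the last of these steps and favoured a rise in the others, so nothing is read from this count. The stage next to F1 was F2 in 70 members, F3 in 22 and another stage in 3. The 10 members that reached 50% by F4 were at a median of 44.6% of F1 in LYF, while the 22 that did so only in F1 were at 4.47% in LYF and still at 39.0% in F2.

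**Figure D2:**
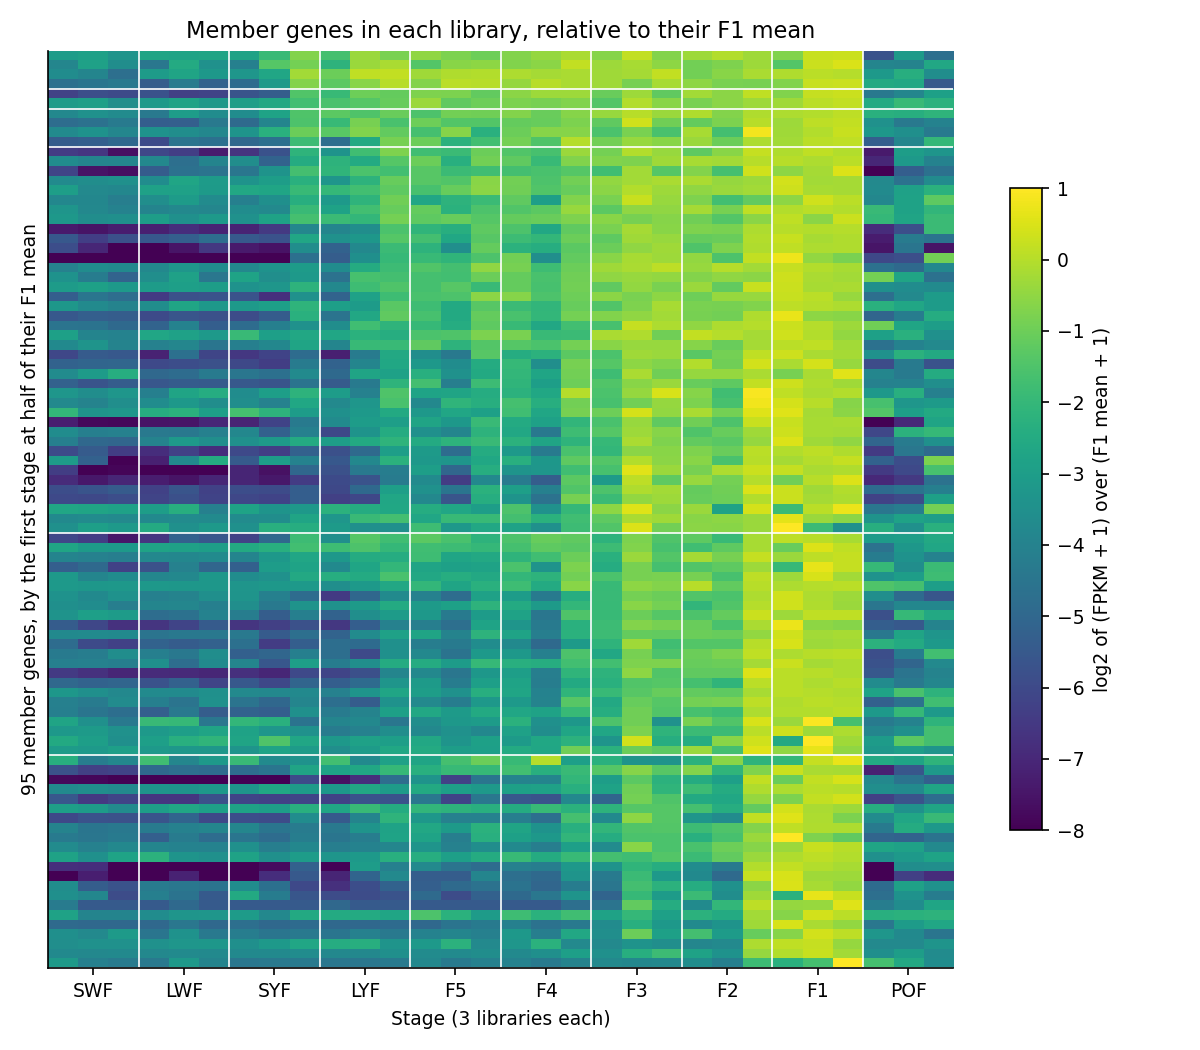
Log2 of FPKM + 1 over the F1 mean + 1 for 95 member genes (rows) in 30 libraries (columns, 3 per stage), with rows grouped by the first stage at 50% of the F1 mean, in the order LYF, F5, F4, F3, F2 and F1. The groups hold 4, 2, 4, 40, 23 and 22 genes, and the POF columns return to low values.

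The rise was tested where the rule had set no ratio, in the 21 libraries of LWF, SYF, LYF, F5, F4, F3 and F2. With limma on log2(FPKM + 1), a gene was called at a Benjamini-Hochberg adjusted p under 0.05 over 13483 genes and a fold over 1.5. Every change below is on this log2 scale, which understates that of low genes. These contrasts are not free of the rule, which also asks for a low start and a peak in F1. More calls higher and fewer lower than among all genes were thus favoured in advance. Nothing is read from that excess, and the shares of all genes are given for scale only.

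Among the prehierarchical stages, in LYF against LWF and SYF together, 31 of the 95 members were called higher, where 3.00% of all genes tested were. In the other direction, 0 members were called lower, where 17.1% of all genes were. The median change was 0.92 for the members and -0.30 for all genes tested, or 1.12 and -0.10 with upper quartile scaling. The members called rose by 1.03 to 4.08 with adjusted p from 0.000455 to 0.0416, and 81 of the 95 had a positive change. Scaling moved the balance over all genes. As deposited, 404 genes were called higher and 2300 lower, and the numbers became 721 and 1121 with upper quartile scaling, with 34 members called higher and 0 lower. The LYF libraries differed among themselves. Replicate 3 was the highest in 71 members, and the median member stood at 3.12%, 8.58% and 16.7% of its F1 mean in LYF replicates 1, 2 and 3. Without LYF replicate 3, 18 members were called, all 18 among the 31, and without LYF replicate 1 there were 43, which include all 31.

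In SYF a single library led as well. SYF replicate 3 was the highest of its stage in 71 members and more than 2 times both others in 46. The median member stood at 7.69% of its F1 mean in SYF replicate 3, against 2.28% and 2.83% in SYF replicates 1 and 2. Without SYF replicate 3, 40 members were called higher in LYF, which include all 31.

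Member 1, ENSGALG00000010237, was among the genes called. It ranked 2 among all genes in F1. The values by replicate were 151, 134 and 161 FPKM in SWF, 166, 217 and 181 FPKM in LWF, 178, 270.4 and 1713 FPKM in SYF and 1680.1, 2081 and 8502 FPKM in LYF. In the preovulatory follicles its F5 and F4 libraries overlapped those of LYF, while its F3, F2 and F1 libraries lay above all of LYF. Replicates 1 to 3 had 5760.2, 4811 and 10634 FPKM in F5 and 8642, 4074 and 10927 FPKM in F4. The same replicates had 14296, 21413 and 16338 FPKM in F3 and 25503, 24323 and 24809 FPKM in F1. The LYF libraries lay above those of SWF and LWF, and 1 of them lay just under SYF replicate 3. The change from LWF and SYF to LYF was 3.44 ± 0.60 (SE; limma, adjusted p = 0.00157). In F1 the mean was 24878 ± 593 FPKM (SD, n = 3).

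Member 9 had the largest change called in LYF. Its libraries were at 1.65, 0.483 and 1.07 FPKM in SWF, at 1.62, 2.62 and 2.32 FPKM in LWF, at 2.47, 2.57 and 39.8 FPKM in SYF and at 24.8, 88.98 and 263 FPKM in LYF. In F1 its libraries were at 1756, 758 and 597 FPKM. SYF replicate 3 lay between the LYF libraries, and the other LWF and SYF libraries lay below all of LYF. The change in LYF was 4.08 ± 0.74 (SE; limma, adjusted p = 0.00183). Member 29 had the next largest, 3.77 ± 0.59 (SE; limma, adjusted p = 0.000808), with a mean of 101 FPKM in LYF and 249 FPKM in F1. The values by replicate were 64.3, 125 and 115 FPKM in LYF, 149.7, 145 and 110.3 FPKM in F5, 166, 201 and 199.6 FPKM in F4, 119, 202 and 109 FPKM in F3, 212, 170.0 and 271 FPKM in F2 and 152, 289 and 306 FPKM in F1. The LYF libraries overlapped those of F5 and F3 and lay below those of F4, F2 and F1, and the trend from F5 to F2 was 0.47 ± 0.65 (SE; limma, adjusted p = 0.652).

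In F5 against LYF, from the last prehierarchical to the first preovulatory stage sampled, 0 of 13483 genes were called, which is 0%, and 0 members. The paper describes preovulatory follicles as selected from large white or small yellow ones, so selection may fall before LYF. The contrast is therefore not read as selection itself. At an unadjusted p under 0.05 in limma there were 542 of the 13483 genes and 10 of the 95 members, all 10 higher in F5. With 0 genes called after adjustment, nothing is read from these counts. The median change was 0.55 for the members and 0.12 for all genes, and 88 of the 95 were positive. Member 33 had the smallest unadjusted p of the members, 0.00122, in this limma fit. Replicates 1 to 3 had 14.1, 32.5 and 51.2 FPKM in LYF and 66.97, 56.8 and 129 FPKM in F5. Its F5 libraries did not overlap those of LYF, and its change was 1.42 ± 0.37 (SE; limma, adjusted p = 0.958). The median change of the members was 0.19 without LYF replicate 1 and 0.82 without LYF replicate 3, both with 0 calls.

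Through the hierarchy, the trend from F5 to F2 called 58 of the 95 members higher, where 4.70% of all genes tested were, and 0 members lower, where 17.3% of all genes were. The median change over the 3 steps was 1.82 for the members and -0.24 for all genes, or 2.12 and -0.04 with upper quartile scaling. The members called rose by 0.89 to 4.44 with adjusted p from 0.000301 to 0.0482, and 92 of the 95 were positive. Over all genes 634 were called higher and 2332 lower, which became 1120 and 1409 with upper quartile scaling, with 67 members called higher and 0 lower. Within F2, replicate 3 was the highest library in 84 members. The median member was at 94.0% of its F1 mean in F2 replicate 3, against 48.7% and 43.5% in F2 replicates 1 and 2. Replicate 3 of F2 has the higher Q30, as has replicate 3 of F4, the highest library in 75 members, while in F3 the highest was the lower-Q30 replicate 2 in 72. For these counts, and those of LYF and SYF above, no share over all genes was taken. They are not read as particular to the members. With a term for the Q30 group 51 members were called, all among the 58, and without F2 replicate 3 there were 39, also all among the 58.

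**Figure D3:**
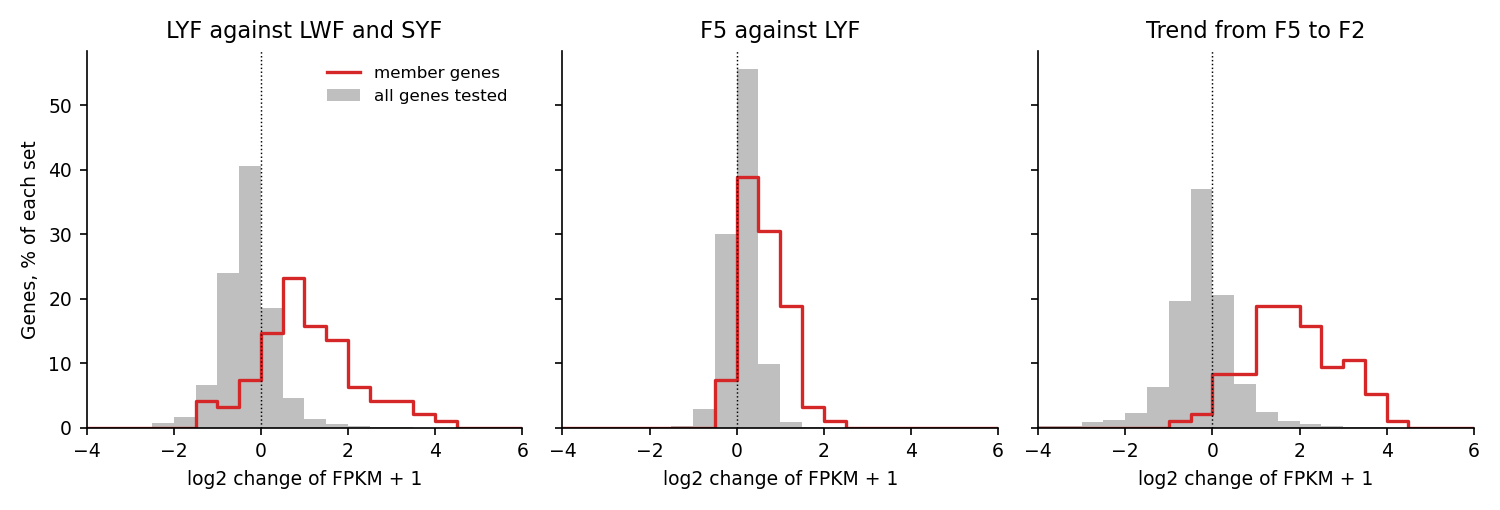
Distribution of the log2 change of FPKM + 1 (x axis) for all 13483 genes tested (grey bars) and the 95 members (red line), as % of each set (y axis), in LYF against LWF and SYF, F5 against LYF and the trend from F5 to F2. The members' medians are 0.92, 0.55 and 1.82, against -0.30, 0.12 and -0.24 for all genes.

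Member 31, ENSGALG00000028326, had the largest trend. Its libraries were at 15.8, 1.62 and 14.7 FPKM in F5, at 10.4, 4.34 and 90.05 FPKM in F4, at 24.4, 235 and 91.5 FPKM in F3, at 165, 117 and 215 FPKM in F2 and at 113, 223 and 317 FPKM in F1. The F2 libraries lay above all F5 and F4 libraries, while F3 replicate 2 was higher than every F2 library. The trend was 4.44 ± 0.84 (SE; limma, adjusted p = 0.00145). Member 67, with the next largest trend at 3.97 ± 0.68 (SE; limma, adjusted p = 0.00074), was listed at 0 in most libraries before F3. The values by replicate were 0, 0 and 0 FPKM in F5, 0, 0 and 0.695 FPKM in F4, 0.886, 18.9 and 7.13 FPKM in F3, 2.37, 9.65 and 46.1 FPKM in F2 and 31.9, 32.7 and 64.7 FPKM in F1. It was thus first seen above 1 FPKM in the preovulatory libraries at F3, where replicate 1 was still at 0.886. Member 34 had the smallest adjusted p of the members, with a trend of 3.56 ± 0.52 (SE; limma, adjusted p = 0.000301). Replicates 1 to 3 had 8.59, 7.56 and 13.1 FPKM in F5, 12.2, 4.75 and 19.4 FPKM in F4, 38.1, 142 and 50.3 FPKM in F3 and 64.9, 65.03 and 175 FPKM in F2. All its F3 and F2 libraries were above all its F5 and F4 libraries.

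Most members called were called in only 1 of these contrasts. Called in both were 8 members (members 3, 14, 20, 36, 44, 64, 85 and 88), which is 25.8% of the 31 and 13.8% of the 58. Another 23 were called in LYF only, 50 in the hierarchy only and 14 in neither. The share of all genes called in both was not taken, so this split is not read as particular to the members. A call in one contrast and not in the other does not show that the changes differ, and that difference was not tested. By abundance, as a description, the split set apart only the members with the highest F1 means. All 9 members at 1000 FPKM or more in F1 were called in LYF and 1 of them in the hierarchy. Of the 39 members from 100 to under 1000 FPKM, 10 and 27 were called, and of the 47 under 100 FPKM, 12 and 30. Among all genes tested, 38.5% of the 39 at 1000 FPKM or more in F1 were called higher in LYF and 10.3% in the hierarchy. Of the 539 from 100 to under 1000, 15.4% and 17.8% were, and of the 4501 from 10 to under 100, 3.95% and 6.62%. These classes include the members, and the 9 members called in LYF are part of the 38.5%. The shares are therefore not independent of the members.

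The last step, from F2 to F1, was used by the rule, which put F1 above F2 in all 95. In 24 members the F2 mean was under 50% of F1. All F1 libraries were above all F2 libraries in 20 members, with 5.01% of all genes above the filter doing so, and nothing is read from this count. F2 replicate 3 exceeded the F1 mean in 40 members, and F2 replicates 1 and 2 in 2 members each. Against F2 replicates 1 and 2 alone, the F1 libraries were all higher in 68 members. That count leaves out F2 replicate 3 and has no share over all genes beside it. The rule favours it, and nothing is read from it. Within F1, the median coefficient of variation of the 3 libraries was 22.3%, it was under 20% in 40 members, and it reached 156% in member 93.

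Member 15, ENSGALG00000034616, shows this last step. Its libraries were at 22.7, 19.5 and 60.3 FPKM in F4, at 30.4, 170.1 and 68.6 FPKM in F3, at 45.8, 20.01 and 727 FPKM in F2 and at 843, 506 and 500.0 FPKM in F1. F2 replicate 3 lay within the F1 libraries, and the other F2 libraries lay below all of them by more than 10 times. The trend from F5 to F2 was 2.23 ± 1.02 (SE; limma, adjusted p = 0.123). Member 21, in contrast, was already at 55.5% of its F1 mean in LYF. The values by replicate were 48.2, 53.6 and 38.6 FPKM in SWF, 128, 314 and 227 FPKM in LYF, 258, 458 and 249.8 FPKM in F3 and 246, 475 and 484 FPKM in F1. Its F1 libraries overlapped those of F3 and LYF, and its trend was 0.50 ± 0.38 (SE; limma, adjusted p = 0.370).

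**Figure D4:**
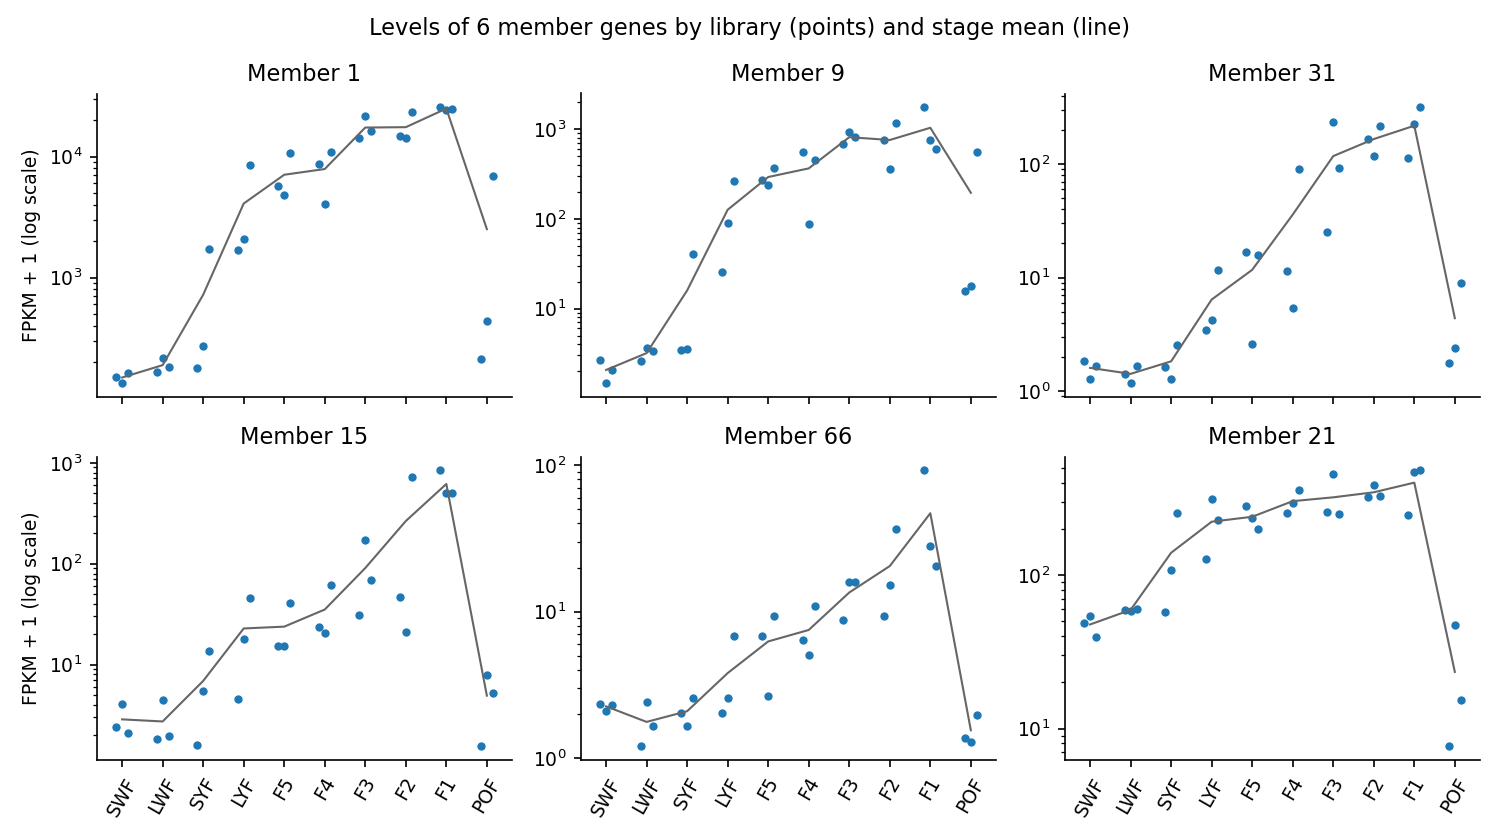
FPKM + 1 (y axis, log scale) of members 1, 9, 31, 15, 66 and 21 at the 10 stages (x axis), with 1 point per library and a line through the stage means. In members 1, 9 and 31 every LYF library is above every SWF library. Member 15 is highest in F1 and 1 F2 library, and member 21 goes from a mean of 223 FPKM in LYF to 402 in F1.

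From SWF to F1 the ratio of the means ran from 8.07 to 1849 with a median of 30.5, and exceeded 100 in 22 members. These values chose the members. In SWF the median member was at 2.23 FPKM, and 30 members were under 1 FPKM, so the largest ratios rest on values close to 0. Member 72, with the highest ratio, had 0.0486, 0 and 0 FPKM in SWF and 41.5, 27 and 21.3 FPKM in F1. The F1 libraries lay above all SWF libraries in 93 members, with 10.8% of all genes above the filter doing so, and nothing is read from this count, which the rule favours. The exceptions were members 90 and 93, whose F1 libraries ran from 1.08 to 23.6 and from 0 to 28.8 FPKM.

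After ovulation the median member kept 8.12% of its F1 mean, with a range from 0.637% to 24.98% set at the upper end by the rule. With upper quartile scaling the median was 6.13%. From POF to F1 the median log2 change was 3.25 for the members and -0.51 for all genes above the filter. As deposited, under 5% of the F1 mean was left in 26 members and over 10% in 39. All F1 libraries were above all POF libraries in 90 members, with 8.83% of all genes above the filter doing so, which the rule favours and from which nothing is read, and the other 5 were members 46, 70, 78, 90 and 93. By library, the median member stood at 3.39%, 6.02% and 9.28% of its F1 mean in POF replicates 1, 2 and 3. POF replicate 3 was the highest POF library in 51 members, replicate 2 in 25 and replicate 1 in 19, while over all genes above the filter these shares were 33.6%, 27.9% and 38.5%. In 27 members replicate 3 was more than 2 times both others. The rule used the mean of these libraries, and single libraries exceeded 25% of F1 in 6, 4 and 12 members for replicates 1, 2 and 3. Without POF replicate 3 the median left was 5.55%. In the 24 lower-Q30 libraries alone, which leave 1 F1 and 2 POF libraries, 73 of the 95 still met the rule.

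**Figure D5:**
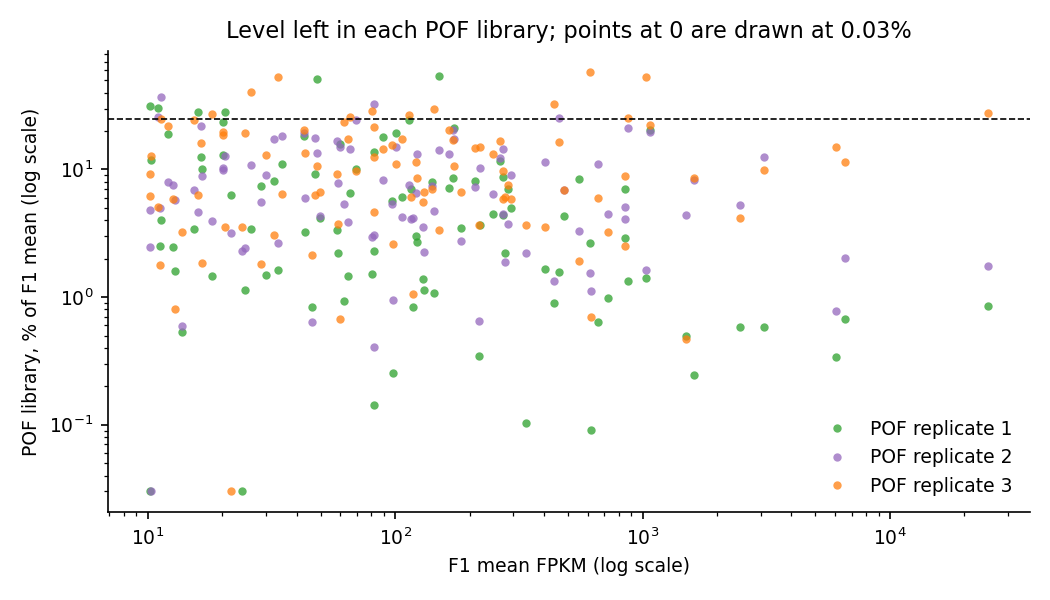
Level in each POF library as % of the member's F1 mean (y axis, log scale) against the F1 mean in FPKM (x axis, log scale) for 95 members, with 1 colour per POF replicate and the 25% limit of the rule as a dashed line. Values at 0 are drawn at 0.03%, and 12 points of POF replicate 3, 4 of replicate 2 and 6 of replicate 1 lie above the line.

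Members differed in how the POF libraries lay. Member 15 kept the least, with 0.564, 6.93 and 4.29 FPKM in POF against 843, 506 and 500.0 in F1, so all its POF libraries were far under its F1 libraries. Member 66, ENSGALG00000004538, was next, with 1.21% left. Replicates 1 to 3 had 1.35, 1.11 and 1.33 FPKM in SWF, 91.01, 27.1 and 19.6 FPKM in F1 and 0.385, 0.29 and 0.988 FPKM in POF. Its POF libraries all lay below its SWF libraries, which was true of member 39 as well. In members 1, 9 and 16, POF replicate 3 set the mean. Member 1 had 212, 437 and 6884 FPKM in POF, member 9 14.7, 17.1 and 552 and member 16 16.2, 9.37 and 356. Members 37 and 64 had the opposite order, with 80.5, 21.3 and 5.05 and 24.5, 6.55 and 5.15 FPKM, so POF replicate 1 was the highest in both. The part of the separate standing of POF replicate 3 in the level left was not tested, and the level was also low in the other POF libraries.

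The SWF and POF means were both bounded by the rule, so their order is a description from which nothing is read. The POF mean was above the SWF mean in 78 members and below it in 17, with a median ratio of POF to SWF of 2.64. All POF libraries were above all SWF libraries in 30 members, where 13.7% of all genes above the filter were, and all SWF libraries were above all POF libraries in 2 members, where 27.9% were. By library, 50, 70 and 77 members were above their SWF mean in POF replicates 1, 2 and 3. Against later stages, the POF mean was below the LYF mean in 54 members and below the F5 mean in 69. The rule allows POF a larger part of the F1 level than it allows SWF, which favours this order.

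The genes most like these in rule are the 47 that met the same conditions on F1 and SWF but stayed at or above 25% of F1 in POF, 46 of which passed the filter of the test. In LYF against LWF and SYF, 9 of the 46 (19.6%) were called higher, against 31 of 95 (32.6%). In the trend from F5 to F2, 24 of the 46 (52.2%) and 58 of the 95 (61.1%) were called. From F4 to F3, the libraries did not overlap in 15 of the 47 and 32 of the 95. The difference between these sets was not tested, and their courses before ovulation are given side by side only.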

How the data were processed

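After removal of low-quality, adapter and rRNA reads, the authors used HISAT2 2.1.0 for mapping to GRCg6a and StringTie 1.3.3 for quantification, and they deposited FPKM per gene and library. Read counts were not analysed here, depth is given here only as relative depth, and the FPKM were used as deposited, with no scaling between libraries. Stages were taken from the sample descriptions, which match the column names. The members and the lists of markers and pathways were chosen with earlier results of these data known, and the lists could not be applied.

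Genes above 0.5 FPKM in at least 2 libraries of 1 of the 7 stages fitted were kept (13483 genes). Over all 10 stages 15197 genes passed. Values were transformed to log2(FPKM + 1), and a model of stage was fitted over 21 libraries by limma 3.58.1 (R 4.3.3), whose spread was allowed to vary with expression. The test was checked on simulated data. Other steps used pandas 2.3.3 and numpy 2.4.6 in Python 3.11.15, and figures matplotlib 3.10.9. Counts of genes whose libraries do not overlap use no test. The alternatives were upper quartile scaling, quantile normalization, a pseudocount of 0.1, other filters, a fit of only the stages compared, the replicate block, a term for the Q30 group, no trend and leaving out each library. For the rule, stage medians and the lower-Q30 libraries alone were used as well. Members to name were those with the highest F1 means, the highest ratios of F1 to SWF, the largest called changes and the highest and lowest levels left in POF. With no symbols, at most 2 identifiers per direction were to be printed. Other members, such as members 21 and 33, were described for other values after those were seen. Of the identifiers, 0 matched the RefSeq table used here.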

Additional observations from a re-analysis of the deposited data

How the results depend on the processing

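With upper quartile scaling 162 genes met the rule, all 95 members among them. The number ran from 91 to 109 without each SWF, F1 or POF library, but the genes changed more than their number. Without F1 replicates 1, 2 and 3, 83, 85 and 87 of the 95 members still met the rule. Stage medians gave 106 genes with 81 of the members, and quantile normalization gave 133 with 90. The lower-Q30 libraries alone gave 131 with 73. The level left in POF kept a median between 5.55% and 9.72% without each POF library, and 6.13% with upper quartile scaling. For LYF against LWF and SYF, the members called higher ran from 18 to 43 without each library and were 20 when only those stages were fitted, of which 18 were among the 31. Over all genes, upper quartile scaling gave 721 higher and 1121 lower, quantile normalization 843 and 871, and only the stages compared 206 and 1159, and without each library the counts ran from 207 to 594 and from 1065 to 2683. The trend from F5 to F2 gave 39 to 63 members without each library, and over all genes 1120 higher and 1409 lower with upper quartile scaling, 1169 and 1297 with quantile normalization, and 330 to 720 and 1380 to 2646 without each library. The libraries that moved a count over all genes by more than 1.5 times were LYF replicates 1, 2 and 3 in the former, and F5 replicate 2 and F2 replicate 3 in the latter. The cause was not tested. Fitting only the stages compared uses fewer libraries and takes the spread from those stages alone. For the trend this fit gave 64 members higher, and over all genes 586 higher and 2347 lower. F5 against LYF had 0 calls under all 30 alternatives, and no member was called lower under any alternative of any contrast except 2 in LYF with a pseudocount of 0.1, 1 with only the stages compared and 1 without SYF replicate 3. With the replicate block 39, 66 and 0 members were called in LYF, the trend and F5. The labels tie no number to a shared hen or day. Correlations of the deviations ran from -0.40 to 0.47 for pairs of the same number, with a mean of 0.08 against -0.04 for other pairs. This range cannot decide whether a number marks a shared hen, because paired libraries need not all correlate. With no label for it, the libraries were not treated as paired. That 12 of 21 libraries correlated best with their own number is a hint from the data, not the design.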
